A study of Mus musculus with 93 samples.

Results

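The cells labelled Progenitor and the cells labelled Mature Neuron were compared, the opposite ends of the developmental series in the mouse olfactory epithelium, the sheet of tissue at the back of the nose that detects odorants. They were chosen by their stage label: 11 Progenitor and 25 Mature Neuron cells, 36 of the 85 cells of the series. All were single cells of C57BL/6 mice (a common inbred strain), picked by hand after the epithelium was dissociated, with no allele or treatment named. RNA was copied into cDNA from an oligo(dT) primer, amplified by PCR and sequenced. Repeat libraries of a cell were left out. The other 49 cells, labelled Precursor (9), Early Immature Neuron (27) and Late Immature Neuron (13), entered only where the path between the ends was traced and for S100a9, a neutrophil gene.

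Olfactory sensory neurons are replaced throughout life. Globose basal cells divide at the base of the epithelium under the control of Sox and basic helix-loop-helix factors, and their daughters leave the cell cycle, grow an axon to the olfactory bulb and put out cilia. A mature neuron detects odorants through a receptor coupled to an olfactory G protein, an adenylyl cyclase, a cyclic nucleotide-gated channel and a calcium-activated chloride channel, all in those cilia, and it releases glutamate.

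Animals and preparations are not named for these single-cell libraries, which makes each stage 1 sample. No p-value is therefore given: differences stand beside the spread over cells (SD), and intervals for shares are exact (Clopper-Pearson, 95%) and cover counting error only. How stages were assigned is not in the labels. If the expression data themselves were used, the markers of a stage are no separate proof of it. Values are FPKM, fragments mapped to a transcript scaled by its length and by the fragments mapped in the library, and a gene was called detected at an FPKM of at least 1. Depth, read from the steps between low values, was 1.34 to 9.0 fragments per FPKM unit at 1 kb in Progenitor cells (median 6.13) and 0.556 to 8.92 in Mature Neuron cells (median 4.19). A median of 4783 genes was detected in a Progenitor cell and 3529 in a Mature Neuron cell, and mitochondrial transcripts held a median of 44.4% and 67.0% of the FPKM sum. Mitochondrial tRNA made up most of that, with medians of 33.5% and 55.7%, so these are not shares of mRNA. Those tRNA entries also weigh on the scaling to one sum used below. The cell names fall into number ranges whose meaning the labels do not give. D168 to D205 held 8 Progenitor cells and no Mature Neuron cell. D29 to D97 and D213 to D274 held 5 and 16 Mature Neuron cells and no Progenitor cell. Only D316 to D434 held both, with 3 Progenitor and 4 Mature Neuron cells, so outside it the number range and the stage cannot be told apart.

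The 8 Progenitor cells D168 to D205 stood apart. Each held RNA of neutrophil genes: S100a9, a calcium-binding protein of granulocytes, lay between 179.3 and 351.8 FPKM in them and was listed at 0 in the other 3 Progenitor cells and in all 25 Mature Neuron cells. S100a8, Camp, Ngp, Retnlg and Lcn2 were likewise detected in 8 Progenitor cells and in no Mature Neuron cell. Among the intermediate stages, S100a9 had a mean log2(FPKM + 1) of 0.83 (SD 2.48) in Precursor cells. Its mean was 0.0 in Early and in Late Immature Neuron cells, some of which have names within D168 to D205. Over the whole list of 29 neutrophil, macrophage and lymphocyte markers, the summed FPKM was 0.146 to 833.0 in Progenitor cells (median 509.7) and 0 to 261.6 in Mature Neuron cells, and 14 and 22 markers stayed below 1 in every cell of the stage. Of this list 7 members were at least 2 log2 units higher in Progenitor cells over all cells, and 0 in either direction within D316 to D434. The part of this RNA in the other differences was not tested, and counts within D316 to D434, whose cells lack it, are given beside those of the gene lists over all cells.

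The stage labels matched their markers with few exceptions. Ezh2, the H3K27 methyltransferase of Polycomb complex 2, was 11.8 to 283 FPKM in Progenitor cells (median 135), detected in 11 of 11 (interval 71.5 to 100%). In Mature Neuron cells it had a median of 0 and reached 101.3 in cell D55, so the ranges overlapped through 1 cell. Top2a, the DNA topoisomerase of dividing cells, was 0.0834 to 323 in Progenitor cells (median 93.0) and at most 0.879 in Mature Neuron cells. Only Progenitor cell D337, at 0.0834, fell within the range of the neurons.

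Omp, the olfactory marker protein, was 0 to 56.2 FPKM in Progenitor cells (median 0) and 1090 to 35130 in Mature Neuron cells (median 6257), a difference in mean log2(FPKM + 1) of 12.11 (SD over cells 1.82 and 1.17) and of 9.52 within D316 to D434. Snap25, a SNARE of synaptic vesicle fusion, was 0 to 1.08 in Progenitor cells and 32.1 to 4530 in Mature Neuron cells, a difference of 8.67 (SD 0.38 and 1.52). For both genes every Mature Neuron cell lay above every Progenitor cell.

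**Figure D1:**
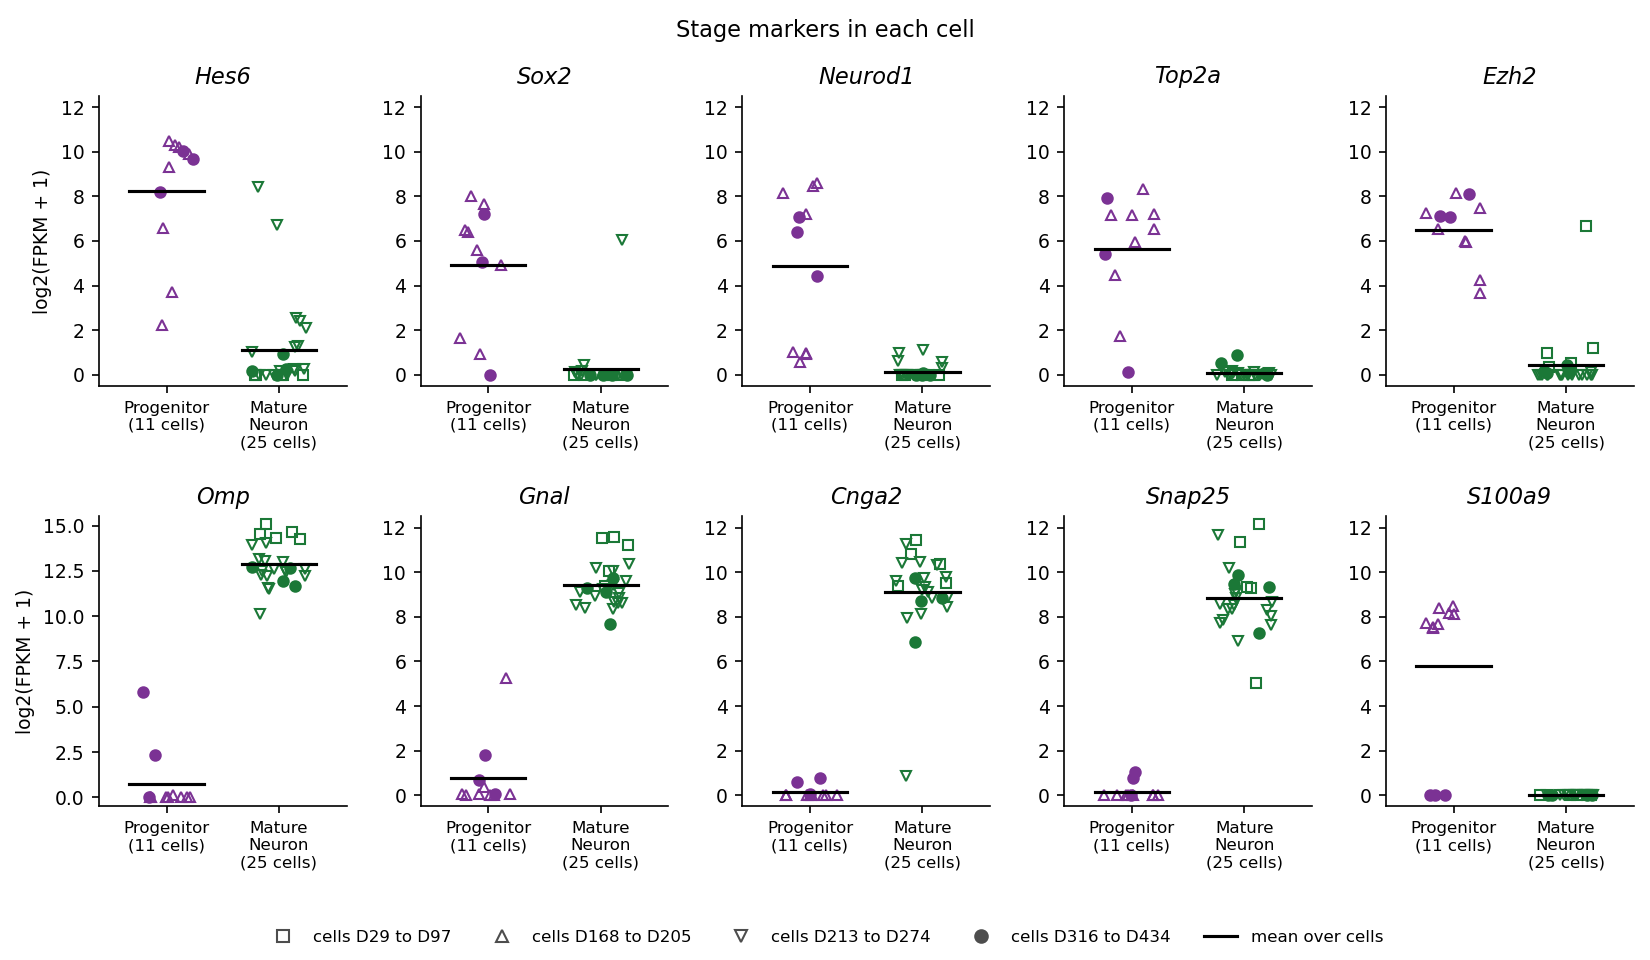
Log2(FPKM + 1) of 10 genes in each of the 11 Progenitor (purple) and 25 Mature Neuron (green) cells. Marker shape gives the number range of the cell name, filled circles being D316 to D434, the range that held both stages, and bars are means over cells. Omp, Gnal, Cnga2 and Snap25 do not overlap between stages, while S100a9 appears in the 8 Progenitor cells D168 to D205 and in no other cell shown.

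The Progenitor cells were not alike among themselves. Sox2, a stem cell factor, was between 29.5 and 254.7 FPKM in 8 of them, at 2.11 and 0.925 in D172 and D203 and listed at 0 in D337. Neurod1, a later proneural factor, was at least 84.65 in 6 cells (D169, D170, D172, D203, D330 and D337), at 20.55 in D393 and at or below 1.065 in D174, D175, D184 and D189. D337, D172 and D203 thus combined high Neurod1 with the lowest Sox2 levels, and the 4 cells with the least Neurod1 all had Sox2 of at least 47.4. Tubb3, a neuronal beta tubulin, was below 3 in D174, D184 and D189 and reached 909 in D203. D172, D203 and D337 also had the fewest of the 48 mitosis genes listed: 31 were detected in the first, 29 in the next and 6 in the last, against 36 to 46 in the other 8. D337 lay within the 0 to 8 of Mature Neuron cells. D337 also had the fewest DNA replication genes, 11 of 40, just above the highest Mature Neuron cells at 10. D172 held S100a5 at 969 and Gnal at 36.9, levels of these neuron genes reached in no other Progenitor cell, and Cbr2, a sustentacular cell gene, at 478.

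Among the 9711 genes that reached detection in 4 or more of the 36 cells, 766 (7.89%) had a mean log2(FPKM + 1) at least 2 higher in Mature Neuron cells and 1213 (12.5%) at least 2 higher in Progenitor cells. A difference of 2 is 4-fold on this scale, which understates the change of low genes. The balance depended on the scaling. Scaled to one sum per column, 524 and 2498 genes passed; to one sum of nuclear genes, 565 and 1636; to one sum of protein-coding genes, 665 and 1405. Mature Neuron calls were 38.7% of all calls as deposited, 17.3%, 25.7% and 32.1% under these scalings, and 48.3% after centring on the median gene. The median gene differed by -0.22 as deposited and by -0.82, -0.48 and -0.35 when scaled, so single differences below are best read against that shift.

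Within D316 to D434, 1537 and 1483 genes passed. Of the genes compared these were 15.8% and 15.3%, against 5.4% and 25.7% when scaled to one sum. Counts of list members below are best read against the share of all genes in the same setting. As deposited, scaled to one sum, scaled to one coding sum and within that range, 448 of the 766 genes higher in Mature Neuron cells (58.5%) and 741 of the 1213 higher in Progenitor cells (61.1%) passed each time. Without the 8 Progenitor cells D168 to D205 the counts were 896 and 1668, and without the 15 cells that held 3 or more strong markers of another cell type they were 765 and 1588.

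Separation of single cells was rarer. In 60 genes (0.618%) every Mature Neuron cell lay above every Progenitor cell, and in 37 (0.381%) every Progenitor cell lay above every Mature Neuron cell. The latter count was 69 without D337, and the 2 counts were 110 and 141 without the 8 Progenitor cells. By detection, 133 genes (1.37%) were present in at least 80% of Mature Neuron and at most 20% of Progenitor cells, and 204 (2.1%) the other way round.

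**Figure D2:**
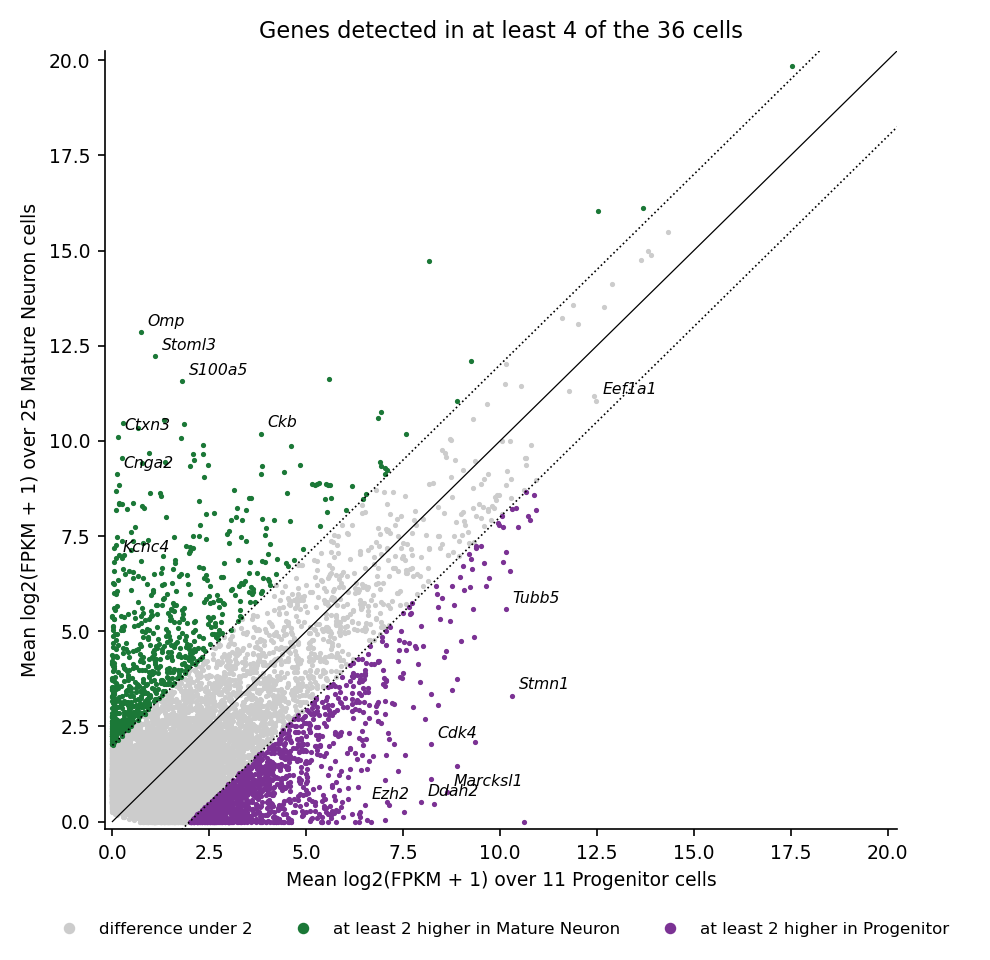
Mean log2(FPKM + 1) of the 9711 genes over the 11 Progenitor cells (x axis) and over the 25 Mature Neuron cells (y axis); dotted lines mark a difference of 2. The 766 green genes are higher in Mature Neuron cells and the 1213 purple genes in Progenitor cells, with Omp, Stoml3 and S100a5 farthest up on the left and Stmn1 and Marcksl1 far down on the right.

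Of 28 genes of odorant transduction listed in the table, 21 were at least 2 higher in Mature Neuron cells and 0 in Progenitor cells, against 3.17% and 5.29% of all 22352 protein-coding genes listed. The counts were 22 and 1 within D316 to D434, where 15.8% and 15.3% of the 9711 genes compared passed. The median difference of the list was 6.20. In 15 of the 28 members every neuron lay above every Progenitor cell, against 0.618% of the 9711 genes compared. In each neuron 20 to 25 members were detected, against 4 to 13 in each Progenitor cell.

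Gnal, the alpha subunit of the olfactory G protein, was 0 to 36.9 FPKM in Progenitor cells and 204.6 to 3032 in Mature Neuron cells (median 603.7), a difference of 8.67 (SD 1.58 and 0.99). Its partners followed different patterns. Gng13, the gamma subunit, had a median of 0 in Progenitor and 1296 in Mature Neuron cells. Gnb1, the beta subunit, was present in all 36 cells, at 36.3 to 301 in Progenitor cells and 460 to 6988 in Mature Neuron cells. Ric8b, a chaperone and exchange factor of that G protein, was detected in 2 of 11 Progenitor cells and in 25 of 25 neurons (medians 0.1995 and 514.8). The alpha and gamma subunits were thus detected in 2 and 5 of 11 Progenitor cells and in every neuron, while Gnb1 was present throughout and 3.84 log2 units higher in neurons. Gnb2, another beta subunit, looked up after its values were seen, went the other way, with 4.62 to 598.6 in Progenitor cells (median 133) and a median of 0 in neurons, where 1 cell reached 21.4.

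Of the enzymes and channels downstream, Adcy3, the adenylyl cyclase of the cilia, was at most 9.56 FPKM in Progenitor cells and 5.15 to 429.9 in neurons (median 89.9), so the ranges overlapped at their edges. The 3 subunits of the cyclic nucleotide-gated channel, Cnga2, Cnga4 and Cngb1, stayed below 1 in every Progenitor cell. Cnga2 was 0.828 to 2811 in neurons (median 665), Cnga4 2.96 to 4076 (median 384.9) and Cngb1 1.18 to 663 (median 100.4). Ano2, the chloride channel, was below 1 in every Progenitor cell and detected in 23 of 25 neurons (median 95.9). All 4 channel genes were higher in every neuron than in any Progenitor cell, although the lowest neuron for Cnga2 stood only just above the highest Progenitor cell, at 0.724.

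Pde4a and Pde1c, phosphodiesterases that break down cyclic AMP, had medians of 0 and 0.332 in Progenitor cells and 237.9 and 132 in neurons. Stoml3, a stomatin-like protein of olfactory cilia, was 0 to 6.21 in Progenitor cells and 978 to 26690 in neurons, a difference of 11.11, the next largest in the comparison after Omp among the annotated genes named by rule. S100a5, a calcium-binding protein of olfactory neurons, had a median of 0.785 in Progenitor and 5845 in Mature Neuron cells but overlapped through Progenitor cell D172.

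Rtp1 and Rtp2, which carry odorant receptors to the cell surface, had medians of 0.238 and 0 FPKM in Progenitor cells and 384.3 and 391.7 in neurons, with no overlap. Of the members that did not pass, Slc24a4, an exchanger that clears calcium from cilia, was detected in 0 of 11 Progenitor cells and only 9 of 25 neurons (interval for neurons 18.0 to 57.5%), a difference of 1.95. Adrbk2, a receptor kinase, was listed at 0 in every neuron, and Gucy2d, of a special class of olfactory neurons, was listed at 0 in all 36 cells. Oligo(dT)-primed amplified cDNA is short and lies near the 3' end, so a gene whose used 3' end lies outside the annotation may read low. This was not tested.

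Ctxn3, a small cortexin-family membrane protein, was 0 to 1.02 FPKM in Progenitor cells and 245.5 to 6562 in neurons, a difference of 9.98 (SD 0.33 and 1.27). Plekhb1 (9.67), Nrn1l (9.28), Stom (9.20), Chga, a granin of dense-core granules (8.72), and Umodl1, itself on the transduction list (8.61), followed on the same scale of differences. All but Chga were higher in every neuron than in any Progenitor cell. Within D316 to D434 the differences of these 6 genes ran from 6.75 (Chga) to 9.61 (Stom).

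Genes of synaptic release were higher in neurons in part: 14 of 42 list members passed in that direction and 0 in the other (19 and 1 within D316 to D434), with a median difference of 1.12. Syt1, the calcium sensor of release, had a median of 0.170 FPKM in Progenitor cells and 53.0 in neurons. Slc17a6, the vesicular glutamate transporter of olfactory neurons, was detected in 1 of 11 and 24 of 25 cells. Both genes were thus near absence in most Progenitor cells and present in nearly all neurons.

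Among genes of excitability, 9 of 39 members passed in neurons and 0 in Progenitor cells (12 and 1 within D316 to D434). Kcnc4, a fast voltage-gated potassium channel, was below 1 FPKM in every Progenitor cell and at least 2.21 in neurons (median 156.2), a difference of 6.82 with no overlap. Scn9a, a voltage-gated sodium channel, had medians of 0.0579 and 60.9. Cacna1h, a low-threshold calcium channel, was detected in 0 of 11 and 23 of 25 cells. Atp1b1, the beta subunit of the sodium pump, had a median of 23.3 in Progenitor cells and 648.2 in neurons.

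Adhesion and guidance genes passed in 10 of 42 cases, all higher in neurons (11 and 1 within D316 to D434, 6 and 1 when scaled to one sum). Cntn4, a contactin of olfactory axons, was at most 0.777 FPKM in Progenitor cells and 0.786 to 489 in neurons, a difference of 6.20. Kirrel2, an adhesion molecule whose level follows neuronal activity, was below 1 in every Progenitor cell and detected in 23 of 25 neurons. Efna3, an ephrin, had medians of 0.0500 and 72.0 and was detected in every neuron. For these 3 genes the Progenitor median was at or near 0.

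Cilia and basal body genes showed 14 of 54 members higher in neurons and 1 higher in Progenitor cells (17 and 4 within D316 to D434, 8 and 4 when scaled to one sum). Arl3 and Pde6d, which deliver lipid-modified proteins to cilia, had medians of 2.98 and 41.5 FPKM in Progenitor cells and 491.1 and 723.8 in neurons. Pde6d differed by 4.51 over all cells and by 1.63 within D316 to D434. Ift43, Ift74 and Ift81, of the intraflagellar transport trains, differed by 4.83, 3.63 and 3.40, but Ift74 by only 0.67 within D316 to D434. Bbs7, a subunit of the BBSome that sorts cilium cargo, was detected in 1 of 11 and 19 of 25 cells. Of the 54 members, 13 to 30 were detected in each Progenitor cell and 16 to 34 in each neuron.

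Of 28 regulators linked to receptor choice, 8 were higher in neurons and 3 in Progenitor cells (7 and 3 within D316 to D434, but 5 and 7 when scaled to one sum), against 3.17% and 5.29% of all protein-coding genes. The shares of the 9711 genes compared that passed within D316 to D434 were 15.8% and 15.3%. Of the Ebf factors, which bind sites near olfactory genes, Ebf4 was below 1 FPKM in every Progenitor cell with a neuron median of 48.8, and Ebf2 and Ebf3 had medians of 29.8 and 1.38 in Progenitor cells and 262.4 and 143.3 in neurons. Ebf1, detected in 8 of 11 Progenitor cells and 25 of 25 neurons, differed by 2.89 over all cells and by 1.17 within D316 to D434. Atf5, a factor of the unfolded protein response that follows receptor expression, had medians of 26.6 and 502 and was detected in 9 of 11 and 25 of 25 cells. Rcor2, a corepressor partner, went the other way, detected in 7 of 11 Progenitor cells and listed at 0 in every neuron.

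Of 28 basal stem and neurogenic genes, 14 were at least 2 higher in Progenitor cells and 0 in neurons, also within D316 to D434. Each Progenitor cell had 11 to 18 of them detected and each neuron 0 to 6. Hes6, a helix-loop-helix factor that promotes neurogenesis, was 3.68 to 1406 FPKM in Progenitor cells (median 805.8) and had a median of 0.123 in neurons, where it reached 336.5. Neurod1 had medians of 84.7 and 0. Id3, an inhibitor of helix-loop-helix factors, had medians of 16.2 and 0. Sox2 had a median of 47.4 in Progenitor cells and was detected in 1 neuron, D254, at 65.4.

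Of the gene lists, mitosis had the largest share of members past the fold. Of 48 mitosis genes, 44 were higher in Progenitor cells and 1 in neurons, with a median difference of -3.95. Within D316 to D434, which holds the Progenitor cell D337 with few of them, 34 and 0 passed. Ube2c, the ubiquitin-conjugating enzyme of the anaphase-promoting complex, was 0.741 to 2281 FPKM in Progenitor cells (median 450.7) and at most 2.18 in neurons, a difference of -7.86 (SD 3.13 and 0.52). Racgap1, needed for cytokinesis, was 22.7 to 798.3 in Progenitor cells and at most 30.7 in neurons. Cks1b, a partner of cyclin-dependent kinases, Cdca8 and Spc25, of the machinery at centromeres, had medians of 192.5, 155.2 and 145.6 in Progenitor cells and were listed at 0 in all neurons. The exception was Pttg1, securin, detected in 6 of 11 and 21 of 25 cells with medians of 1.08 and 8.57, a difference that was 1.93 with one coding sum and 0.64 within D316 to D434.

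Of 40 DNA replication genes, 21 were higher in Progenitor cells and 0 in neurons (20 and 2 within D316 to D434). The number detected per cell, 11 to 38 against 1 to 10, did not overlap. Gins2, of the replicative helicase, had medians of 30.2 and 0 FPKM, and Rrm1, of ribonucleotide reductase, 39.8 and 0. Tk1, thymidine kinase, was detected in 9 of 11 Progenitor cells and listed at 0 in all neurons. Of 22 genes linked to leaving or running the cell cycle, 9 were also higher in Progenitor cells and 1 in neurons (7 and 2 within D316 to D434). The 9 include Ccnd1, a D cyclin, and Cdk4, which are not genes of leaving the cycle. Gadd45g, a growth arrest gene, had a median of 110.3 in Progenitor cells and was listed at 0 in all neurons. Cdkn1b, the cell cycle inhibitor p27, had a median of 13.0 and stayed below 0.1 in neurons. Cdk4, the partner of D cyclins, had medians of 462.1 and 0.989, but its difference of -6.20 shrank to -1.52 within D316 to D434. The exception was Cdkn1a, the inhibitor p21, detected in 0 of 11 and 8 of 25 cells. Its difference was 2.02, 1.94 with one coding sum and 4.78 within D316 to D434.

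Of 51 chromatin genes, 22 were higher in Progenitor cells and 0 in neurons (18 and 0 within D316 to D434, 36 and 0 when scaled to one sum), against the 5.29% and 3.17% of all protein-coding genes. H2afx and H2afv, histone H2A variants, had medians of 171.7 and 505.5 FPKM in Progenitor cells and 0 and 4.46 in neurons. Nasp, a histone chaperone, had medians of 134.9 and 0.638, and Hmgb3, a high mobility group protein, 27.8 and 0.192.

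Upstream sequence of these genes was read from RefSeq (GRCm38.p6, the mm10 assembly) because cell cycle promoters share known elements: the cell cycle homology region TTTGAA, the NF-Y site CCAAT and the E2F sites TTTGGCGC and TTTCGCGC. Both strands of the 250 bases before each start were searched, and these motifs do not overlap one another. The lines below show stretches of 4 genes higher in Progenitor cells that lie outside annotated exons, on the strand of the gene, with TTTGAA and CCAAT (or their reverse complements) in capitals. They are Top2a (minus strand, chr11:99024329-99024421), Nasp (minus strand, chr4:116628041-116628145), Hmgb3 (plus strand, chrX:71555765-71555875) and Ezh2 (minus strand, chr6:47595086-47595150).
Top2a: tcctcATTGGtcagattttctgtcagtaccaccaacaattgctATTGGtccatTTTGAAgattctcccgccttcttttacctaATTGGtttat
Nasp: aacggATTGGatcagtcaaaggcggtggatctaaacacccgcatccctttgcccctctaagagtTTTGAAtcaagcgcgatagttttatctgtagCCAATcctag
Hmgb3: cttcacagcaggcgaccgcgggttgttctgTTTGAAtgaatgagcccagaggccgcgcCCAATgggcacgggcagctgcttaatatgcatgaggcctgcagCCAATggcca
Ezh2: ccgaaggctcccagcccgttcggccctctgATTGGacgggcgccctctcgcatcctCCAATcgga

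In the Top2a and Nasp stretches TTTGAA lies between copies of CCAAT (in either orientation), in the Hmgb3 stretch it lies before both copies, and the Ezh2 stretch holds CCAAT in both orientations. The stretches of the mitosis genes Racgap1 and Spc25, not shown, held CCAAT but no TTTGAA. Of 44 promoters found for 41 of the 48 mitosis genes, 38.6% held TTTGAA and 77.3% CCAAT, against 16% and 33.8% of all 32851 promoters and 10.6% and 36.2% of promoters of the 9711 genes compared. A high CCAAT share was not particular to that list. CCAAT was in 80% of 25 promoters of endoplasmic reticulum genes and 51.8% of 56 promoters of cilia and basal body genes. In synaptic release genes it was in 17.5% of 40 promoters. E2F letters were in 14.7% of 34 promoters of DNA replication genes, 4.55% of mitosis promoters and 0.654% of all. TTTGAA was in 19% of 58 promoters of chromatin genes, the list that holds Nasp, Hmgb3 and Ezh2. In DNA replication genes it was in 8.82% of 34 promoters. Over all genes higher in Progenitor cells, TTTGAA stood in 12.3% of 1137 promoters, and over those higher in Mature Neuron cells in 9.45% of 741. For the odorant transduction genes, the Ebf site, TCCC and GGGA parted by 2 bases of any kind, was in 1 of 28 promoters (3.57%, against 0.779% of all). These are matches of letters, not sites shown to be bound. The promoter table held no entry for Omp, Gnal, Ctxn3, Rtp1 and Snap25.

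Cytoskeleton genes differed in both directions, 12 of 42 higher in Progenitor cells and 5 in neurons (12 and 5 also within D316 to D434, 12 and 2 with one coding sum). Marcksl1, a membrane-linked actin regulator, was 93.2 to 1257 FPKM in Progenitor cells and had a median of 0 in neurons, a difference of -7.86 (SD 1.02 and 1.57). Stmn1, a microtubule destabiliser, was 314.1 to 3169 in Progenitor cells and had a median of 4.28 in neurons. Basp1 and Dpysl3, growth cone proteins, were detected in all 11 Progenitor cells and had medians of 0 in neurons, with no overlap between stages. Gap43, the growth cone protein of immature neurons, was low at both ends, detected in 4 of 11 Progenitor cells and 0 of 25 neurons.

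Further genes with the largest differences towards Progenitor cells served metabolism and signalling. Ddah2, which degrades methylated arginines, was 55.9 to 1042 FPKM in Progenitor cells and at most 6.46 in neurons. Fabp5, a fatty acid carrier, had a median of 285.9 and stayed below 1 in all neurons. Impdh2, the rate-limiting enzyme of guanine nucleotide synthesis, had medians of 380.4 and 0. Mdk, the secreted growth factor midkine, had a median of 109.7 and stayed below 1 in neurons. Ddah2, Fabp5 and Mdk were higher in every Progenitor cell than in any neuron.

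Genes of the nucleolus and of translation were higher in Progenitor cells in 17 of 41 cases and in neurons in 0 (15 and 0 within D316 to D434, 27 and 0 when scaled to one sum), with a median difference of -1.59. Npm1, the nucleolar protein nucleophosmin, was 53.8 to 1343 FPKM in Progenitor cells (median 528.2) and 0 to 349.7 in neurons (median 43.1). Naca, a ribosome-associated chaperone, was 519.2 to 1236 in Progenitor cells, with an SD of 0.39, and 0 to 784.6 in neurons, with an SD of 2.91.

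Of 21 glycolysis and creatine kinase genes, 4 were higher in neurons and 1 in Progenitor cells (6 and 0 within D316 to D434). Ckb, brain creatine kinase, had medians of 2.11 and 1370 FPKM, and Aldoa, an aldolase, 2.66 and 361.2. Of 73 nuclear genes of oxidative phosphorylation, 5 and 1 passed as deposited, with a median difference of 0.32 (0.73 within D316 to D434). That sign depended on the scaling: the median was -0.08 and the counts 3 and 3 with one coding sum, and -1.11 and 0 and 17 with one sum of all entries. No direction is given for this list. Of 26 housekeeping genes 2 and 1 passed as deposited, 2 and 6 with one coding sum, 0 and 13 with one sum, and 7 and 4 within D316 to D434.

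Of 33 neuronal RNA-binding genes 6 passed in each direction (6 in neurons and 4 in Progenitor cells within D316 to D434, 3 and 7 when scaled to one sum), with Mbnl2 and Khdrbs3 higher in neurons and Elavl4 and Ptbp1 in Progenitor cells. Of 29 endoplasmic reticulum genes 4 (Hspa5, Dnajb9, Dnajb11 and Herpud1, all chaperones or stress-response genes) were higher in neurons and 3 in Progenitor cells (5 and 4 within D316 to D434, 2 and 7 when scaled to one sum). Hspa5, Dnajb9 and Herpud1 differed by 1.51, 1.16 and 1.16 within D316 to D434. Of all genes compared, 15.8% and 15.3% passed within that range and 5.4% and 25.7% when scaled to one sum. The counts of the neuronal RNA-binding and endoplasmic reticulum lists in those settings lay near these shares. Those of the immediate early genes, given next, lay near them when scaled to one sum. Of 23 immediate early genes 0 were higher in neurons and 3 (Fos, Egr1 and Btg2) in Progenitor cells (2 and 5 within D316 to D434, 0 and 6 when scaled to one sum), and Egr1 differed by -1.36 within that range. Of 24 genes of other chemosensory systems, Gnao1 was higher in neurons and Gnai2 and Gnas in Progenitor cells, with 1 and 1 passing within D316 to D434, where Gnas differed by -1.94.

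**Figure D3:**
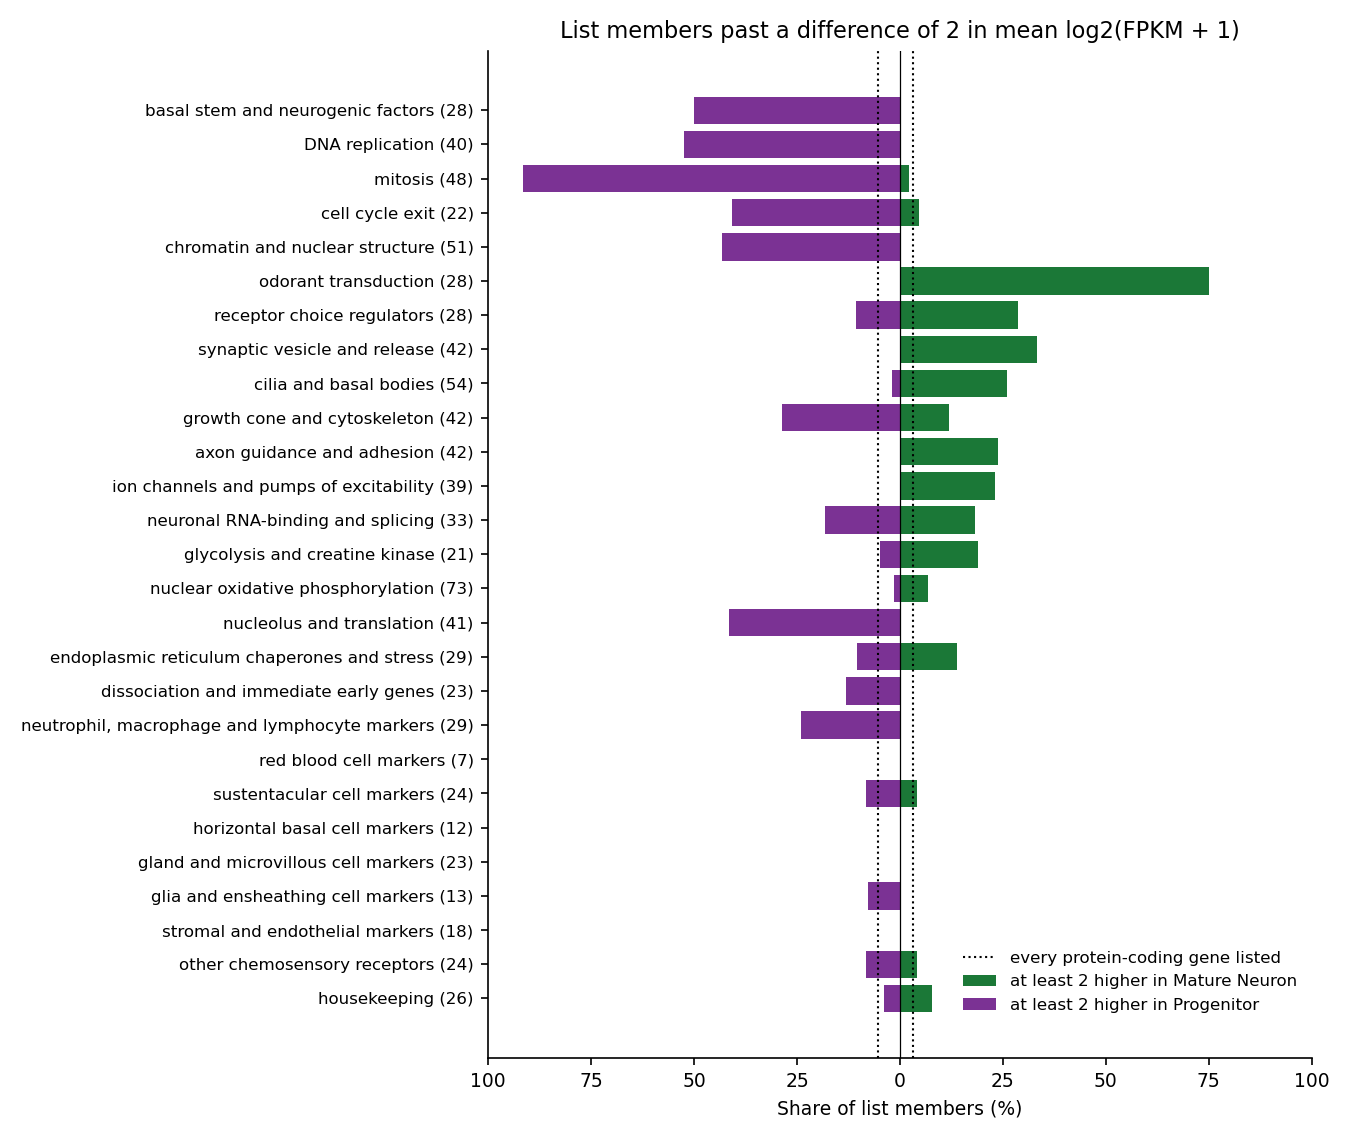
Share of each list's members with mean log2(FPKM + 1) at least 2 higher in Mature Neuron cells (green, to the right) or in Progenitor cells (purple, to the left), with the number of members in brackets. Dotted lines mark the same shares for every protein-coding gene, 3.17% and 5.29%; mitosis genes reach farthest left (44 of 48) and odorant transduction genes farthest right (21 of 28).

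Ratios of related genes within a cell do not move with the scaling of its library, apart from the pseudocount. Of 32 pairs set up as a general or proliferative form and a neuronal or alternative form, the mean log2 ratio of second to first moved towards the second by at least 2 in 21 pairs, towards the first in 4, and by less than 2 in 7. In 4 pairs the cells of both stages did not overlap. A ratio of levels between genes carries their lengths only as FPKM accounts for them.

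Gnal over Gnas, the olfactory against the general stimulatory G protein, was -4.41 to 0.28 in Progenitor cells and 7.68 to 11.57 in neurons. Its mean moved by 11.15 and by 10.04 within D316 to D434. Snap25 over Snap23 ran from -4.73 to 0.97 in Progenitor cells and from 2.97 to 12.15 in neurons. Ezh1 over Ezh2 was -8.01 to -1.63 in Progenitor cells and -0.47 to 6.57 in neurons. In that pair Ezh1 itself was alike, detected in 3 of 11 and 5 of 25 cells with a difference of -0.04, so the ratio moved through Ezh2.

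Stmn3 over Stmn1 moved by 10.58, with 0 of 11 Progenitor cells and 21 of 25 neurons above a ratio of 0. Tuba1a over Tuba1b moved by 6.53 over all cells but by 2.16 within D316 to D434. Vamp2 over Vamp3, SNAREs of vesicles, was above 0 in 4 of 11 Progenitor cells and 25 of 25 neurons. Ptbp2 over Ptbp1, splicing repressors, moved by 4.21. In the Ptbp pair Ptbp1 was 3.35 lower in neurons while Ptbp2 differed by 0.86.

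In 4 pairs the ratio moved the other way, towards the general form. Eno1, the general enolase, had medians of 22.5 and 185.3 FPKM, while Eno2, known as neuron-specific enolase, was detected in 0 of 11 and 2 of 25 cells and reached 2.67. Aldoc over Aldoa moved by -4.76 and Clta over Cltb by -2.29. The pairs of Eef1a2, a neuronal elongation factor, and of Actl6b, of the neuronal BAF remodelling complex, were among the 21 that moved towards the neuronal form, by 2.44 and 4.89, although these genes were detected in only 5 and 1 of 25 neurons. Low readings of such genes can also come from 3' ends outside the annotation, which was not tested.

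The intermediate cells, which played no part in choosing the genes, were used to place the differences along the stages. The genes were chosen by the end stages, so chance and RNA particular to those cells can add to the first and last steps. S100a9, for example, had a mean log2(FPKM + 1) of 5.78 in Progenitor and 0.83 in Precursor cells. Stages also differed in their number ranges, and the part of either was not tested. Of the 766 genes higher in Mature Neuron cells, the largest part of the difference fell between Early and Late Immature Neuron cells for 385 (50.3%), between Precursor and Early Immature Neuron cells for 264 (34.5%), before that for 70 (9.14%) and after it, between Late Immature and Mature Neuron cells, for 47 (6.14%). Of the 1213 genes higher in Progenitor cells, 370 (30.5%) had their largest part between Progenitor and Precursor cells, 461 (38.0%) in the next step, 218 (18.0%) in the one after and 164 (13.5%) in the last. The same order of steps was found with one coding sum.

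Single genes followed distinct courses. Sox2 had a mean log2(FPKM + 1) of 4.90 (SD 2.79) in Progenitor and 0.58 in Precursor cells, where it was detected in 2 of 9. Top2a had means of 5.64, 3.17 and 0.76 in Progenitor, Precursor and Early Immature Neuron cells. Ezh2 was slower, at 6.52, 5.13, 3.48, 1.58 and 0.43 over the 5 stages. Marcksl1 was 8.64, 8.14 and 6.43 over the first 3 stages and 2.32 and 0.78 over the last 2. Gap43 had its highest mean, 7.54, in Early Immature Neuron cells.

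Omp had means of 0.75 in Progenitor, 5.94 (SD 4.52) in Early Immature, 12.37 (SD 0.67) in Late Immature and 12.86 in Mature Neuron cells. Gnal, Cnga2, Stoml3, Ctxn3 and Snap25 took similar courses, with Late Immature Neuron means of 8.77, 8.62, 11.90, 9.12 and 8.87 against 9.43, 9.12, 12.22, 10.11 and 8.84 in Mature Neuron cells. For these genes the last 2 stages differed by less than 1 SD over Mature Neuron cells. The SDs were widest in Early Immature Neuron cells, where Omp ranged from 0 to 6224 FPKM.

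**Figure D4:**
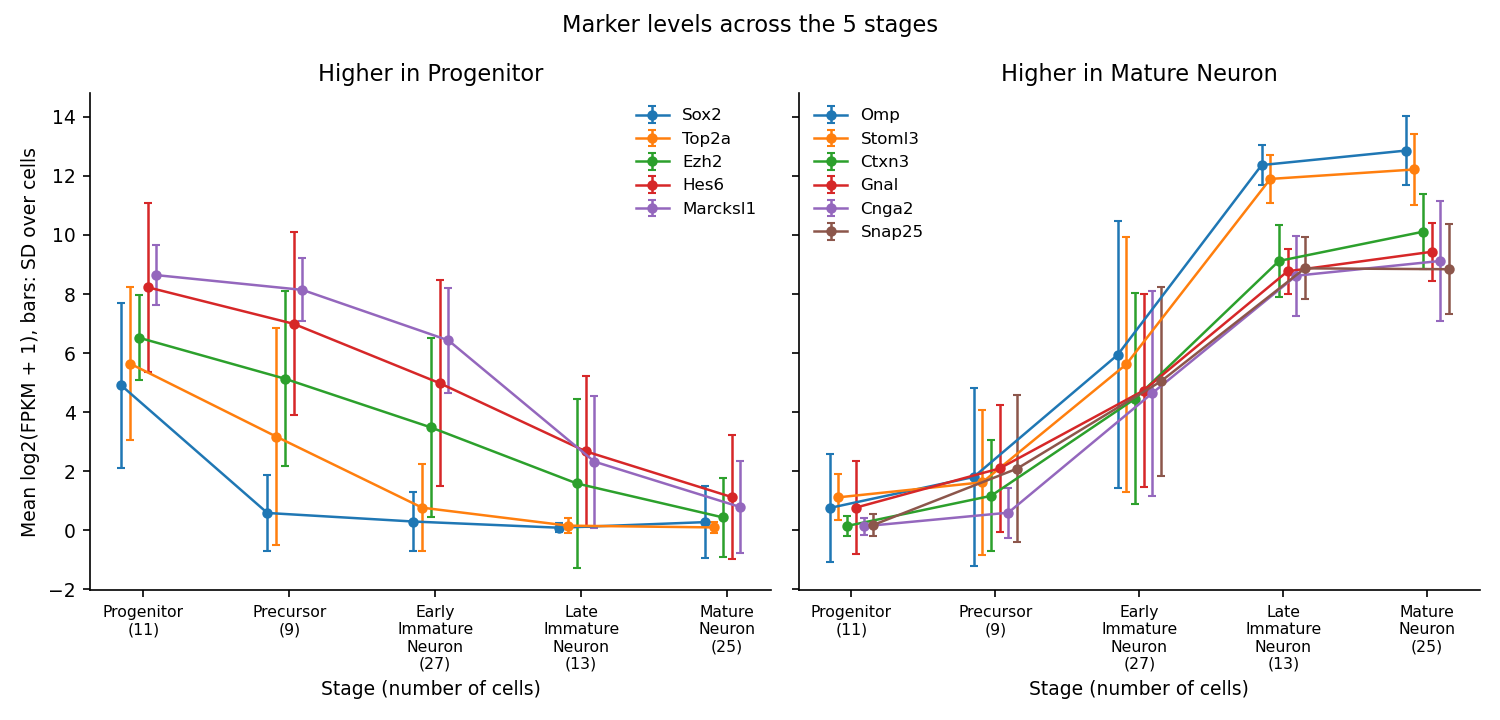
Mean log2(FPKM + 1) with SD over cells for 5 genes higher in Progenitor cells (left) and 6 higher in Mature Neuron cells (right) over the 5 stages, with the number of cells in brackets. Sox2 is near 0 from Precursor cells on, Ezh2 and Marcksl1 decline over several stages, and the genes on the right are near their Mature Neuron level in Late Immature Neuron cells.

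Markers of other cell types were present in both stages. The 24 sustentacular cell markers, genes of the supporting cells of the epithelium, summed to 0.737 to 1732 FPKM in Progenitor cells (median 254.3) and 2.32 to 4400 in Mature Neuron cells (median 1284). In 2 Progenitor cells and 12 neurons 3 or more of them reached 100, while 8 and 2 markers stayed below 1 in every cell of the stage. In this list Sult1d1 was higher in neurons, where it was detected in 25 of 25, and Krt8 and Krt18 were higher in Progenitor cells. Sult1d1 had the highest mean of these markers in neurons and enters both their sums and the count of 12 neurons. Whether it marks supporting cells here was not tested. Of 13 glia markers Fabp7 was higher in Progenitor cells, by 3.72 over all cells, and it was 0.80 lower there than in neurons within D316 to D434. Of 7 red blood cell, 12 horizontal basal cell, 23 gland and microvillous and 18 stromal and endothelial markers, 0 passed in either direction over all cells. The part of this RNA in the gene differences was not tested beyond the counts given above without the 15 cells.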

How the data were processed

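Single-cell RNA-seq libraries were mapped and quantified by the authors. The submitters' processing notes name TopHat2 2.0.14 and Cufflinks 2.2.1 for mm10, with Trim Galore and cutadapt 1.2.1 and CASAVA 1.8.2; how they were set, and whether Cufflinks scaled libraries to each other, is not given here. The deposited gene table holds FPKM for 32975 entries, and a deposited annotation gives positions and names (other values). A deposited receptor table was not used here, and 107 control entries were left out.

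Samples were grouped by the stage label. One entry per symbol was kept (the highest mean over the 36 cells), and the pseudocount was 1. Fewer fragments per FPKM, recovered from single-exon genes, make low values less certain; PCR copies are not independent molecules. No count model or test was applied. The procedure was tested on simulated data. Python 3.11.15, numpy 2.4.6, pandas 2.3.3, scipy 1.17.1 and matplotlib 3.10.9 were used.

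Stages, 27 gene lists and 32 pairs were chosen with earlier results of these data known. Genes named were the 12 largest differences in each direction among annotated genes (past 2 also when scaled to one sum and keeping direction within D316 to D434), up to 10 non-overlapping genes per direction, up to 6 members per list, pairs that moved by at least 2, and the stage markers. The other transduction genes, Gnb2, Pttg1, Cdkn1a and the motile cilium genes were named after their values were seen. Promoters came from RefSeq (GRCm38.p6). Alternatives were other scalings, pseudocounts, filters, folds and sets of cells. Some genes are not reported here.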

Additional observations from a re-analysis of the deposited data

Results flagged for a closer look

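For 11 genes traced over the stages, single cells were compared with the rest of their group where a stage held 4 to 10 cells, which applied to the 9 Precursor cells only. In 3 of the 11 genes 1 cell lay far from the others on the log2 scale by the gap to its nearest neighbour over the whole range. The cut-off flags about 1 group in 20 by chance for normally distributed values only. Here the Precursor medians of the 3 genes were 0 (Sox2 and Omp) and 0.0843 (Ctxn3). A single expressing cell then makes a wide gap, so that rate does not apply and no excess is claimed. Sox2 was 13.1 FPKM in D195, with the next cell at 1.69. Ctxn3, a gene higher in Mature Neuron cells, was 42.2 in the same cell D195, with the next at 4.36. Omp was 378.5 in D242, with the next cell at 14.2. D195 thus held both a Progenitor gene and a Mature Neuron gene above the other Precursor cells.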

How the results depend on the processing

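No paired analysis was possible because the labels give the stages no shared replicate numbers. Of 8280 values of named genes over 46 alternatives, 8093 stayed within 1 SD over cells. From a difference of at least 2, 5 values changed sign, and sign changes from smaller differences were not counted. By the same measure 45 of 1269 list medians and 15 of 1472 pair ratios moved, and none of them changed sign from a median of at least 1 or a ratio difference of at least 2. Most of the alternatives left out a single cell, which can hardly move a mean by 1 SD over cells, so these counts say little about processing. Within D316 to D434, Fabp7 changed to 0.80 and Vamp3 to 0.63; without the 8 Progenitor cells D168 to D205, Fabp7 changed to 0.41, Lcn2 to 0.04 and Vamp3 to 0.20. The cause was not tested. Shares of genes tested follow, for Mature Neuron and then Progenitor cells. Scaled to one sum, 25.7% were higher in Progenitor cells, 0.299% and 0.649% did not overlap and 0.886% and 3.65% were called by detection. A pseudocount of 0.1 gave 15.2% and 26.8% past the fold, and of 10 gave 2.82% and 2.31%. A log2 fold of 1 gave 18.9% and 29.9%, and of 3 gave 3.73% and 4.61%. Within D316 to D434, with fewer cells, 15.8% were higher in Mature Neuron cells, 9.95% and 7.38% did not overlap and 2.16% were present mainly in Mature Neuron cells. Without the 15 cells with other markers 1.24% did not overlap towards Progenitor cells, and without the 8 Progenitor cells 1.13% and 1.45% did not overlap. Detection at an FPKM of 10 gave 0.803% and 0.865%, and shares of 90% and 10% gave 0.628% and 0.525%. Leaving out 1 cell at a time gave 752 to 794 and 1186 to 1324 genes past the fold, 60 to 71 genes above in every Mature Neuron cell, 0.381% to 0.711% (the latter without D337) above in every Progenitor cell, and 111 to 151 and 171 to 286 genes by detection. Depth limits detection most in neurons, whose libraries went down to 0.556 fragments per FPKM unit at 1 kb.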

Other observations

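Genes of the motile axoneme, which moves cilia and flagella, were looked up after their presence among the genes higher in Mature Neuron cells had been seen, so their counts describe that choice and support nothing. The cilia of olfactory neurons are known as immotile in mammals. Of 64 such genes listed in the table, 20 were at least 2 log2 units higher in Mature Neuron cells and 0 in Progenitor cells (20 and 0 with one coding sum, 19 and 0 with one sum, 23 and 0 within D316 to D434), and 14 were below an FPKM of 1 in all 36 cells. Rsph1 and Rsph9, of the radial spokes, had medians of 0 in Progenitor cells and 166.8 and 59.2 in neurons, where they were detected in 23 and 21 of 25 cells. Enkur, Pifo, Dnajb13, Spef1 and Kif9 differed by 5.54, 5.17, 5.08, 4.40 and 5.01. Rsph4a and Rsph3a, also of the radial spokes, were detected in 9 and 5 of 25 neurons, and the axonemal dynein genes Dnaic2 and Dnah11 in 6 and 9.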
